A study of Mus musculus with 2 samples.

Results

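The nuclear genes for subunits of the respiratory chain were examined in the hindbrain of the mouse embryo. They were taken by symbol from the gene tables: protein-coding Ensembl genes named Nduf with a letter a, b, c, s or v and a number (complex I), Sdha to Sdhd (complex II), Uqcr (complex III), Cox4 to Cox8 (complex IV) and Atp5 (complex V, the ATP synthase). This gave 84 genes of 43346 Ensembl genes, 21474 of them protein coding. Complex I had 37 members, complex II 4, complex III 8, complex IV 18 and complex V 17. A second Ensembl entry named Atp5o, also protein coding, was not analysed here.

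All RNA came from 1 group, hindbrain of B6NCrl mice at embryonic day 13.5, with male and female embryos pooled and no treatment named. Total RNA longer than 200 nt was extracted by the Ambion mirVana method, and 10 ng of it entered each library. The 2 libraries are labelled biological replicates 1 and 2 and share a donor label, so part of their spread may be technical. With 1 group there is no contrast of conditions: values are compared between genes, and between the libraries. In such bulk tissue, a low level in all cells and a high level in few cells cannot be told apart.

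The respiratory chain sits in the inner mitochondrial membrane. Complexes I and II pass electrons from NADH and succinate to ubiquinone, complex III passes them on to cytochrome c, complex IV passes them to oxygen, and complex V uses the resulting proton gradient to make ATP. Every complex except II combines nuclear-encoded subunits with subunits encoded in mitochondrial DNA, and some nuclear subunits of complexes IV and V have paralogs that are used in particular tissues.

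Replicates 1 and 2 held 33080194 and 38756411 estimated counts. Levels are given as TPM, transcript abundances scaled for transcript length and library size, which can be compared between genes. All 5 neuronal and all 4 progenitor markers were detected, among them Hoxb2, a transcription factor of the hindbrain, at 34.9 ± 4.88 TPM (SD, n = 2). Errors below are SDs over the 2 libraries unless said otherwise.

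The respiratory chain genes were among the most abundant nuclear transcripts of the tissue. Detection, set at 1 TPM or more in each library, was met by 80 of the 84 members, against 62.2% of all protein-coding genes. The other 4 were Cox6a2, Cox7b2, Cox8b and Cox8c, all of them tissue-restricted paralogs of complex IV subunits. The median over the 84 members was 318 ± 0.470 TPM, against 19.3 TPM over the detected protein-coding genes. Of the members, 72 lay at or above the 90th percentile of detected protein-coding genes (119 TPM) and 56 at or above the 95th (210 TPM). Together they held 3.13% ± 0.0188 of the TPM and 1.34% ± 0.0123 of the estimated counts of a library. The members' median effective length, the part of a transcript in which a read can start, was 559 bases, against 2546 bases over all genes with 1000 or more counts in the pair of libraries.

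Over all members, complex V had the highest median level and complex II the lowest. The medians were 516 ± 8.25 TPM for complex V, 396 ± 1.30 for complex III, 380 ± 11.4 for complex IV, 268 ± 8.08 for complex I and 191 ± 2.47 for complex II. On the log2(TPM + 1) scale, the complex I median was exceeded by 0.94 ± 0.07 in complex V, by 0.55 ± 0.04 in complex III and by 0.47 ± 0.09 in complex IV. Complex II differed from it by -0.49 ± 0.02. Each of these differences was larger than the spread between the libraries, but the SD among the detected members of complex I alone was 1.12 on the log2 scale, so the complexes overlapped widely. Complexes III and IV lay closest, with 395 and 388 TPM in replicate 1 and 397 and 371 in replicate 2. The place of complex IV depended on the summary. Over detected members its median was 581 ± 18.3 TPM, above that of complex V, and its difference from complex I was 1.10. The mean over members gave -1.66. The median over transcripts annotated as protein coding alone gave -0.59, with 172 TPM for complex IV against 191 TPM for complex II.

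**Figure D1:**
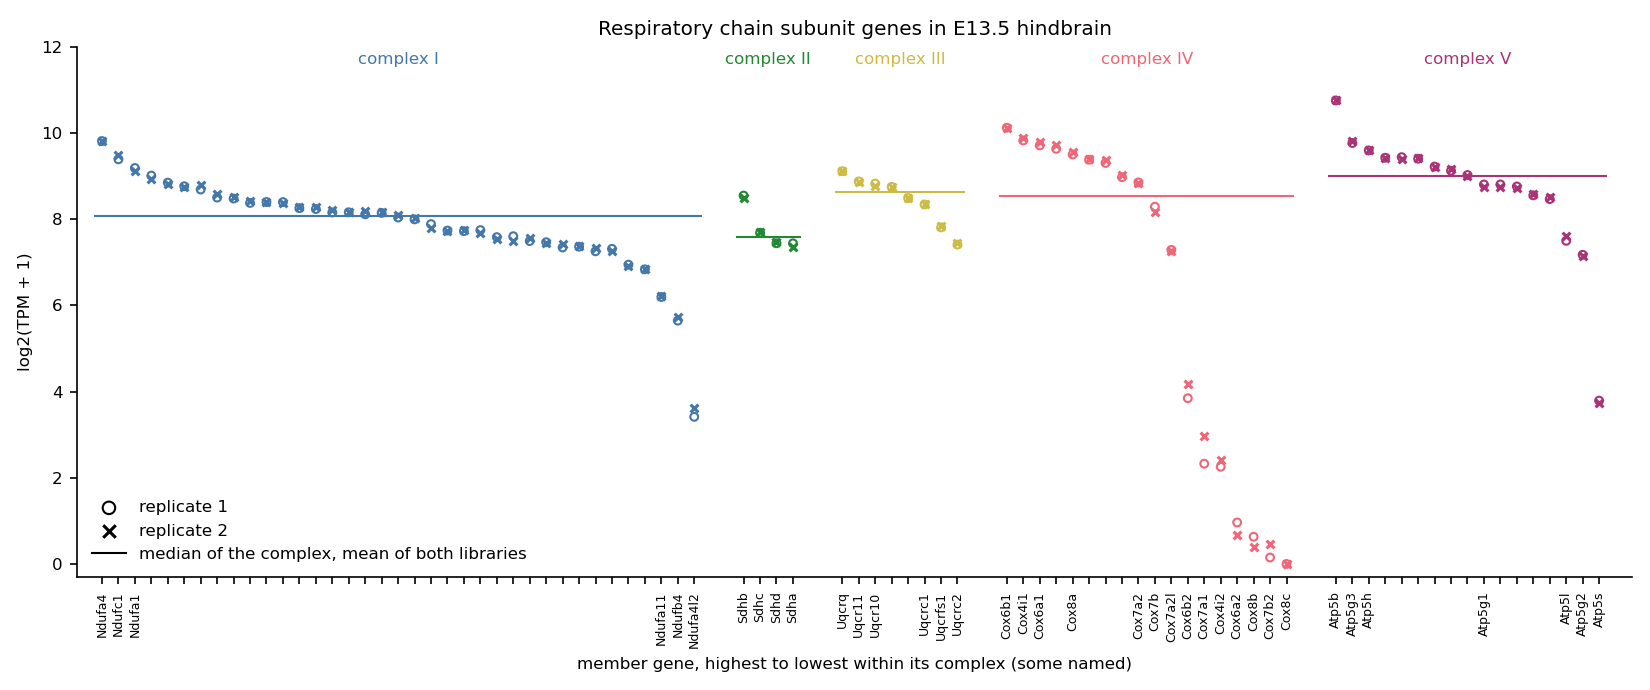
Level of each of the 84 members as log2(TPM + 1) in replicate 1 (circles) and replicate 2 (crosses), ordered within its complex; names are given for complex II, the paralogs and the 3 highest and lowest of each complex, and lines mark the complex medians. Most members of complexes I, III and V fall off gradually, with Ndufa4l2 and Atp5s far below, while complex IV breaks between Cox7a2l at 154 TPM and Cox6b2 at 15.3 TPM.

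Complex I is the NADH dehydrogenase, in which nuclear-encoded core subunits carry the flavin and iron-sulfur clusters and the accessory subunits surround them. The 10 Ndufb accessory subunits of the membrane arm had a median of 263 ± 6.56 TPM and the 20 other accessory subunits one of 299 ± 8.45. Among the core subunits, Ndufv2, which holds an iron-sulfur cluster of the NADH-binding tip, was highest with 286 and 288 TPM in replicates 1 and 2. Ndufs1, the largest core subunit, was lowest with 114 and 114 TPM. Between these stood, in falling order of mean level, Ndufs7 (210 ± 6.29), Ndufv1 (194 and 178 TPM), Ndufs3 (174 ± 2.47) and Ndufs8 (165 ± 1.48). Ndufv1 had the widest gap between the libraries of these genes, and its values did not overlap with those of Ndufs7 above it or Ndufs3 below it.

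The accessory subunits were spread more widely. The 3 highest members of complex I were Ndufa4 with 901 and 898 TPM, Ndufc1 with 671 and 721, and Ndufa1 with 584 and 554. Ndufa4 was named as a complex I subunit and is now known as a subunit of complex IV. Counted alone with complex IV, it would raise the difference between complexes IV and I from 0.47 to 0.80 on the log2 scale. With its paralog Ndufa4l2 moved as well, the difference would stay at 0.47. The 3 lowest were Ndufa11 with 72.4 and 73.2 TPM, Ndufb4 with 49.2 and 52.6, and Ndufa4l2, a paralog of Ndufa4, with 9.67 and 11.3. No 2 of these 6 genes overlapped in level between libraries.

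Within complex I, genes with longer transcripts had lower TPM. Spearman's rho between mean TPM and effective length was -0.79 across its 37 members and -0.88 across the 8 members of complex III. It was -0.04 across the 14 detected members of complex IV and -0.02 across the 17 of complex V. These are descriptions across genes, which are not independent replicates, and TPM is itself calculated by dividing by effective length.

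Ndufb4, an accessory subunit of the membrane arm and the lowest but for Ndufa4l2, has a copy identical over its whole reading frame. Its reading frame of 390 bases (gene at chr16:37647170-37654453, minus strand, GRCm38) was identical at every base to the processed pseudogene Ndufb4c (chr15:73809507-73809896, minus strand). A processed pseudogene is a copy of a spliced transcript inserted elsewhere in the genome. The first 300 bases that gene and copy share are shown because no read that lies within them can be assigned to either by its letters; the start codon is in capitals.
Ndufb4 and Ndufb4c: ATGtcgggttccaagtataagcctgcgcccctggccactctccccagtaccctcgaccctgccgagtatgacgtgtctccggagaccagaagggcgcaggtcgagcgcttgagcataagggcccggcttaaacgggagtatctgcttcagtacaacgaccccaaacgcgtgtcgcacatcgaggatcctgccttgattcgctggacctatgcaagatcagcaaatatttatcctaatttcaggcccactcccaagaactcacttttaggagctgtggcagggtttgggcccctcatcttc
Ndufb4 was given 490 and 649 estimated counts, and Ndufb4c 1807 and 2135. The copy therefore held 77.7% ± 1.41 of the counts of the pair, with 301 TPM in each library. Gene and copy together reached 350 and 353 TPM, which would place Ndufb4 10th instead of 36th among the 37 members of complex I. The copy's TPM rests on its annotated 390 bases, against 581 for the gene. The sum and the place are thus not a level of Ndufb4 transcripts.

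Complex II, succinate dehydrogenase, is the only complex made entirely of nuclear-encoded subunits, and all 4 are members. Sdhb, the iron-sulfur subunit, was highest with 374 and 359 TPM. The membrane anchors Sdhc (205 and 207 TPM) and Sdhd (173 and 178) followed, and Sdha, the flavoprotein with the succinate site, had 173 and 164. Sdhb stood above the other 3 genes in both libraries, while Sdhd and Sdha were nearly equal in replicate 1 and apart in replicate 2. The catalytic partners Sdha and Sdhb are present in equal number in the complex, and their TPM differed by far more than the spread.

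Complex III passes electrons from ubiquinol to cytochrome c. Its 5 small accessory subunits had a median of 447 ± 10.2 TPM and all exceeded the 3 larger members. Uqcrq had 554 and 560 TPM, Uqcr11 470 and 467, and Uqcr10 454 and 440, without overlap between neighbours. The core protein Uqcrc1 had 324 TPM in both libraries, the Rieske iron-sulfur protein Uqcrfs1 had 224 and 230, and the core protein Uqcrc2 had 169 and 174. Uqcrc1 and Uqcrc2, which stand side by side in the complex, differed by far more than their spread. Its highest and lowest member were 3.25-fold apart.

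Complex IV, cytochrome c oxidase, held members of high level and paralogs with far fewer transcripts, 4 of them below detection. The 3 highest members were Cox6b1, on the outer face of the complex, with 1117 and 1112 TPM, Cox4i1, the largest nuclear subunit, with 909 and 942, and Cox6a1 with 840 and 889. The 4 subunits without a paralog in the set (Cox5a, Cox5b, Cox6c and Cox7c) had a median of 658 ± 11.8 TPM. The 14 paralogs, by contrast, ran from 0 to 1115 TPM. The lowest detected were Cox6b2 with 13.4 and 17.2 TPM, Cox7a1 with 4.02 and 6.81, and Cox4i2 with 3.78 and 4.36.

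In 5 of the 6 paralog sets of complex IV the widely expressed form held nearly all the transcripts, and only Cox7a had a second form above 100 TPM. Cox4i1 held 99.6% ± 0.0330 of the summed TPM of its set; Cox4i2, known as the form of lung and of oxygen-sensing vascular cells, was 240-fold lower in replicate 1 and 216-fold lower in replicate 2. Cox6a1 stood against Cox6a2, the form of heart and skeletal muscle, which had 11 and 8 estimated counts, 0.950 and 0.590 TPM. That is 884-fold and 1506-fold below Cox6a1. Cox6b2, known as a form of testis, held 1.35% ± 0.240 of the Cox6b set and was 83.4-fold and 64.6-fold below Cox6b1. The sign of each of these contrasts was the same in both libraries, and the gaps were many times the spread.

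In the Cox7a set, Cox7a2 held 74.2% ± 0.168 and Cox7a2l 24.9% ± 0.160 of the TPM. Cox7a2 had 463 and 455 TPM, and Cox7a2l, known to join complexes III and IV into supercomplexes, had 156 and 152. Cox7a1, the muscle form, held 0.878% ± 0.328 of that set on 22 and 44 counts. Cox7b had 313 and 288 TPM, while its testis form Cox7b2 had 1 and 4 counts; Cox7b was 2842-fold higher in replicate 1, with a 95% counting interval from 513 to 112967, and 778-fold higher in replicate 2. Cox8a had 725 and 758 TPM. Cox8b, the form of muscle and brown fat, had 3 and 2 counts, and Cox8a exceeded it 1319-fold (95% counting interval 449 to 6370) and 2445-fold (673 to 20081). Cox8c, a testis form, had no count. A limit of 3 counts corresponds to 0.385 TPM in replicate 1 and 0.326 in replicate 2, so that Cox8a was at least 1883-fold and 2324-fold higher. These intervals and limits cover counting error only. Ndufa4l2, known as a hypoxia-induced gene of pericytes, was 93.2-fold and 79.2-fold below Ndufa4.

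**Figure D2:**
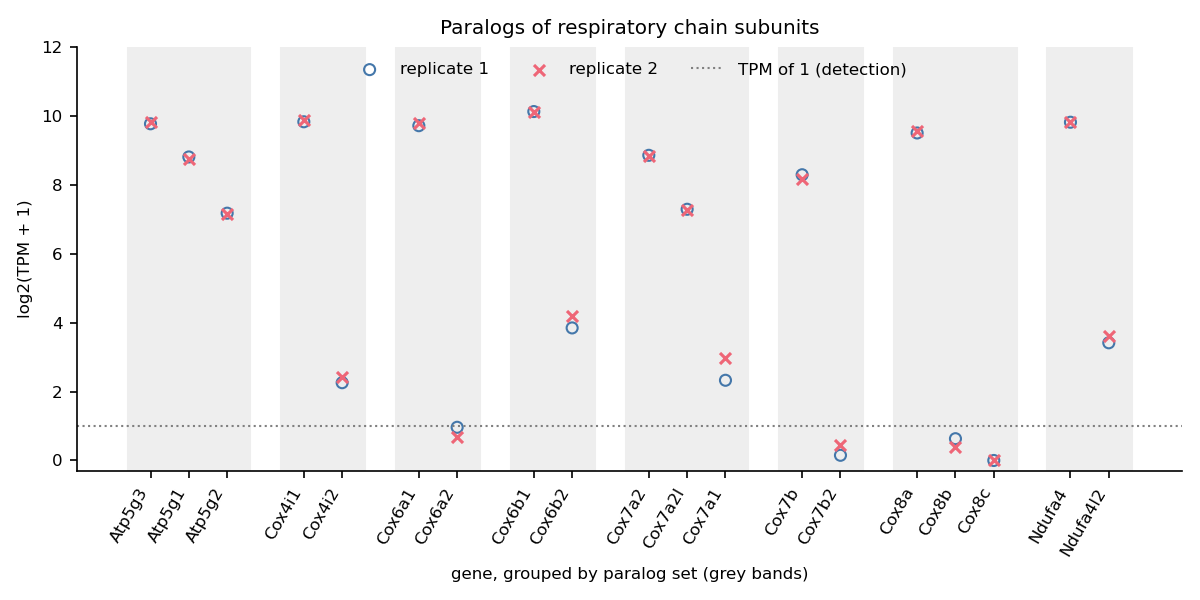
Level of the paralogs as log2(TPM + 1) in replicate 1 (circles) and replicate 2 (crosses), with each set on a grey band and detection at a TPM of 1 as a dotted line. Only the Atp5g and Cox7a sets hold more than 1 gene at a high level; Cox6a2, Cox7b2, Cox8b and Cox8c lie below the line.

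Markers of the cells in which the rarer paralogs are known were measured beside them. Of 12 striated muscle markers 8 were detected, with a summed level of 77.1 and 84.7 TPM; Actc1, the actin of embryonic and heart muscle, made up 39.1 ± 3.70 TPM, while Ckm, the creatine kinase of mature muscle, had 0.560 ± 0.127. All 6 pericyte markers were detected, with sums of 48.0 and 50.4 TPM and Rgs5 at 11.8 ± 0.665. Of 6 germ cell markers 1, Dmrtb1, was detected; Tnp1 was at 0 and Prm1 at 0.240 ± 0.0283 TPM. Of 3 brown fat markers 1, Prdm16, was detected, with Ucp1 at 0.165 ± 0.106 TPM. Whether the low paralog counts came from such cells was not tested.

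Cox7c, a small subunit without a paralog in the set, also had a processed copy. Its reading frame of 192 bases (gene at chr13:86044816-86046904, minus strand) matched Gm12338 (chr11:75599763-75599954, minus strand) at every base, and is shown whole, with the start codon in capitals, since the annotated copy consists of nothing else.
Cox7c and Gm12338: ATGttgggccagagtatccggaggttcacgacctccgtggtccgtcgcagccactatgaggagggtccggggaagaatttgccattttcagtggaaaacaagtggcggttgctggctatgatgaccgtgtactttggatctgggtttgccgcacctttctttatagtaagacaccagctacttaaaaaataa
Cox7c was given 5116 and 6420 counts and 633 and 663 TPM. Gm12338 was given 1412 and 1792 counts and, at its short length, 735 and 790 TPM. With a second copy, Gm10012, the copies held 22.1% ± 0.207 of the counts. Adding their TPM would raise Cox7c from 7th to first place in complex IV, at 1417 ± 61.0 TPM, but this sum rests on the short length of the copy and is not a level of Cox7c transcripts.

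Complex V was led by 1 subunit of its catalytic head. Atp5b, the catalytic beta subunit, had 1733 and 1740 TPM, the highest level of all 84 members, and Atp5a1, the alpha subunit that alternates with it, had 688 and 685. The 5 subunits of F1, the part that holds the head, had a median of 681 ± 4.67 TPM. Among them, Atp5c1 (439 ± 12.3 TPM) and Atp5d (359 ± 7.67) stood below the median of complex V. The 4 subunits of the peripheral stalk had a median of 600 ± 11.1 TPM and the 4 accessory subunits of the membrane part one of 472 ± 7.45. Atp5h of the stalk, with 774 and 781 TPM, came after Atp5b and Atp5g3. Alpha and beta are present in equal number in the enzyme, and their TPM differed in both libraries by far more than the spread. The 3 lowest members were Atp5l, a membrane subunit at the dimer interface, with 180 and 194 TPM, Atp5g2 with 144 and 141, and Atp5s with 12.9 and 12.4. Atp5s, named coupling factor B, was the only complex V gene under 100 TPM.

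The c ring, the rotor through which protons pass, is encoded by 3 genes. Their reading frames were compared to show what distinguishes their reads. The last 237 bases, stop codon included, translated to the same 78 residues in all 3 genes, while 58, 68 and 63 residues came before them in Atp5g1, Atp5g2 and Atp5g3; the shared stretch includes the mature c subunit, and the part before it holds the targeting peptide that is removed on import. In the letters below, the 64 positions at which the 3 genes differ are in capitals, and 55 of them are the third positions of codons.
Atp5g1: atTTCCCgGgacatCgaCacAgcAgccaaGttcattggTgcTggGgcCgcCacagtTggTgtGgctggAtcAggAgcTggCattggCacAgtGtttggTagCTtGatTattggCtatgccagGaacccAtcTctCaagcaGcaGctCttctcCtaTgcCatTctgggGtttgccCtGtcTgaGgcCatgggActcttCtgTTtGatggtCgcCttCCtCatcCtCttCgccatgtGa
Atp5g2: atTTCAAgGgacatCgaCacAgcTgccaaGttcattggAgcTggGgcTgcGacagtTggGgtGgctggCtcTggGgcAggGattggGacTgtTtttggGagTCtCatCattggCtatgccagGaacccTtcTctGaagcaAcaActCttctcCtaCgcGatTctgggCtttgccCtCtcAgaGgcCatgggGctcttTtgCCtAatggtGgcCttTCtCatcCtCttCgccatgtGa
Atp5g3: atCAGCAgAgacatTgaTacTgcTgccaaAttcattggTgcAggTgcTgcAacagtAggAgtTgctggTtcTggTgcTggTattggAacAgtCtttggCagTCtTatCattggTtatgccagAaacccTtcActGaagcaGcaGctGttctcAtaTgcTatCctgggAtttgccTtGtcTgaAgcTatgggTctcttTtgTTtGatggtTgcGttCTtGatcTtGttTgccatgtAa
The longest run without a difference was 21 bases between Atp5g1 and Atp5g2, 11 between Atp5g1 and Atp5g3 and 8 between Atp5g2 and Atp5g3, all far under 100 bases, the fragment length implied by the deposited effective lengths. Reads of the 3 genes could thus be told apart within this stretch.

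Atp5g3 held the most c subunit transcripts, with 873 and 909 TPM or 60.5% ± 1.27 of the set. Atp5g1 had 447 and 430 TPM, 29.8% ± 1.05, and Atp5g2 144 and 141 TPM, 9.66% ± 0.225. The order was the same in both libraries and every gap was larger than the spread. Copies take part of the counts here too. Gm10175 (chr7:23946646-23947290, minus strand) carries the 441-base frame of Atp5g2 without a difference, and Gm10039 (chr11:100361716-100362126, minus strand) differs from the 411-base frame of Atp5g1 at 1 base. The first 300 bases common to Atp5g2 (chr15:102662864-102672352, minus strand) and Gm10175 are given with the start codon in capitals.
Atp5g2 and Gm10175: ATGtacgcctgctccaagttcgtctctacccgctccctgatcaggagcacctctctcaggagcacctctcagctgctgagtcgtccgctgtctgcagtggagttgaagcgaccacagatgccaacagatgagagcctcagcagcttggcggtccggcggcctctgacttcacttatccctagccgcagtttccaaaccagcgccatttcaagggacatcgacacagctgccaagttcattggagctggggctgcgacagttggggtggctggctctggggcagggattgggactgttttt
Gm10175, annotated as a transcribed processed pseudogene of 645 bases, was given 2044 and 2718 counts, against 1871 and 2162 for Atp5g2. A further processed pseudogene, Gm10231 (chr17:5816200-5816640), also shared exact runs with Atp5g2, 342 of them against 546 for Gm10175. It was given 0 counts in both libraries. How reads were divided among Atp5g2 and these copies was not tested. Gm10039 was given 1453 and 1677, against 4897 and 5568 for Atp5g1. With the copies' TPM added at their own shorter lengths, Atp5g1 would stand at 662 ± 15.6 TPM and Atp5g2 at 357 ± 15.7, still in the same order below Atp5g3.

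Atp5l showed the largest copy in counts. The processed pseudogene Gm10221 (chr5:24581554-24581862, minus strand) matched the first 309 of the 312 bases of the Atp5l frame (gene at chr9:44912557-44920742, minus strand) without a difference. The first 300 of these are shown, with the start codon in capitals.
Atp5l and Gm10221: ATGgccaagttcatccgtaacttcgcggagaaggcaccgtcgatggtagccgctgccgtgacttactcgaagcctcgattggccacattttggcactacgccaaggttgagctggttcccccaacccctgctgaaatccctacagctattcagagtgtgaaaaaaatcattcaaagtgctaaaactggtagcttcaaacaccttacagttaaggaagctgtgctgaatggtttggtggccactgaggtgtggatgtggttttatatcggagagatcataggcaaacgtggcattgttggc
Gm10221 was given 5283 and 6630 counts and 792 and 841 TPM, while Atp5l itself was given 1534 and 1953 counts. The copies held 77.4% ± 0.161 of the counts. Gene and copies together reached 973 and 1038 TPM, which would move Atp5l from 15th to 2nd place among the 17 members of complex V. This sum too rests on the short length of the copy, 309 bases against 511 for the gene, and is not a level of Atp5l transcripts.

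Over all members, 14 shared an exact run of 100 bases with a processed pseudogene, 21 pseudogenes in all. In 5 of the 14 (Ndufb4, Atp5l, Atp5g2, Atp5g1 and Cox7c) the copies held more than 5% of the counts, and in the other 9 less. Adding the copies' TPM moved the complex I median from 268 to 283 TPM and that of complex V from 516 to 595. The range from the highest to the lowest member of complex V, Atp5s left out, narrowed from 12.2-fold to 4.87-fold, and that of complex I, Ndufa4l2 left out, from 17.7-fold to 12.4-fold. These medians and ranges use the copies' own annotated lengths, which in the 5 named members are shorter than those of the genes. They are thus not levels of the members' transcripts. The deposited values cannot show whether the reads came from the genes or from transcribed copies. A further limit is overlap: 24 members overlapped, from gene start to gene end, a gene of the opposite strand with 10 or more counts. Cox4i1 and Ndufa13 also overlapped a gene of the same strand, Gm20388 (394 and 488 counts) and Yjefn3 (141 and 156 counts). No strand setting separates reads of genes on the same strand. Overlap of their exons was not examined. Without a stated strand setting, it is unknown whether reads from any shared exon were assigned by strand.

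**Figure D3:**
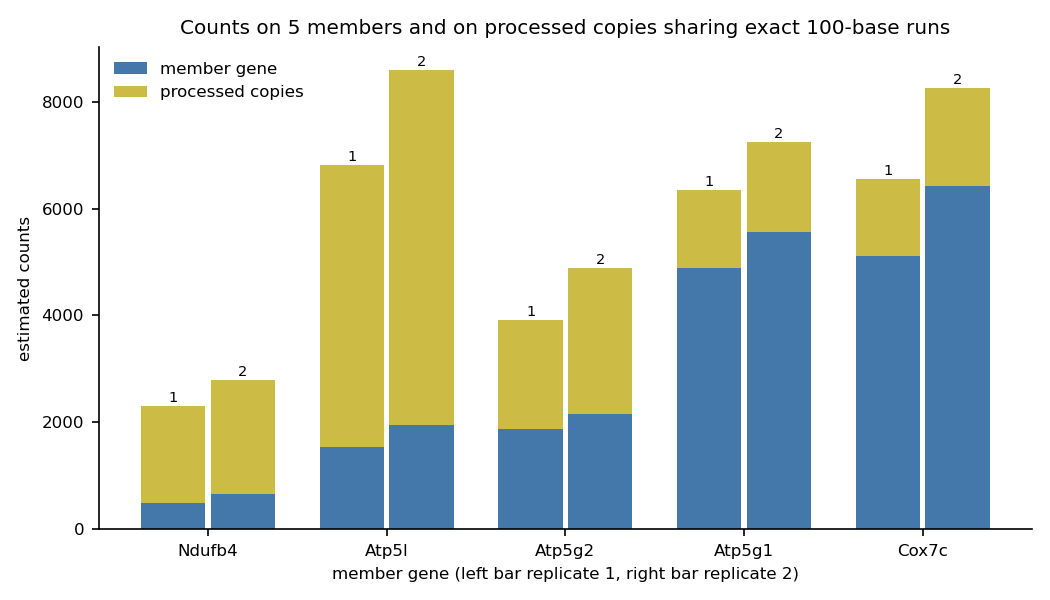
Estimated counts assigned to 5 members (blue) and, stacked above, to the processed pseudogenes that share exact 100-base runs with them (yellow), for replicate 1 (left bar) and replicate 2 (right bar). In Ndufb4, Atp5l and Atp5g2 the copies hold the larger part in both libraries.

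Transcripts annotated as protein coding held more than 90% of the TPM in 59 of the 80 detected members, with a median share of 99.3%. In 7 members they held less than 50%. Most of the TPM of Atp5f1, the b subunit of the stalk, was given to a transcript annotated for nonsense-mediated decay (66.4% ± 0.177). A transcript with a retained intron led in Atp5j, coupling factor 6 (61.8% ± 2.50), and in Ndufb4 (74.6% ± 3.34). The Ndufb4 shares leave out the counts given to Ndufb4c, which matches its whole reading frame and held 77.7% of the pair's counts. They therefore do not settle the coding share of Ndufb4. Transcripts of the type processed transcript, which have no annotated reading frame, led in Cox5b (59.8% ± 0.573) and, chosen after its value was seen, in Ndufa5 (89.9% ± 1.34), leaving 34.0 TPM on the coding transcripts of Ndufa5. The same transcript led in both libraries in each of these genes, with SDs of at most 3.34 percentage points.

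Shares of counts differed from shares of TPM. The coding share was 36.9% of TPM and 61.1% of counts in Cox5b, and 45.8% of TPM and 67.2% of counts in Cox7b, whose retained-intron transcript (45.3% ± 2.00 of TPM) nearly equalled the coding one. Ndufa10, also chosen after its values were seen, had 18.3% of its TPM and 38.8% of its counts on coding transcripts. By counts, 6 of the detected members had a coding share under 50%.

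In other members, 2 or more transcripts each held at least 20% of the gene. Both were coding in Atp5g3 (72.2% and 24.4%), Atp5h (62.4% and 30.7%), Ndufs1 (55.2% and 24.3%) and Ndufv2 (77.7% and 20.8%), and 3 coding transcripts shared Ndufb5 (46.5%, 30.1% and 21.5%). A processed transcript was second in Atp5b (23.2% of TPM but 6.14% of counts), Cox7c (22.1%) and Uqcrq (27.6%), and a retained-intron transcript was second in Ndufc1 (35.1%). Shares between transcripts of 1 gene are estimates from reads that the transcripts largely have in common.

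**Figure D4:**
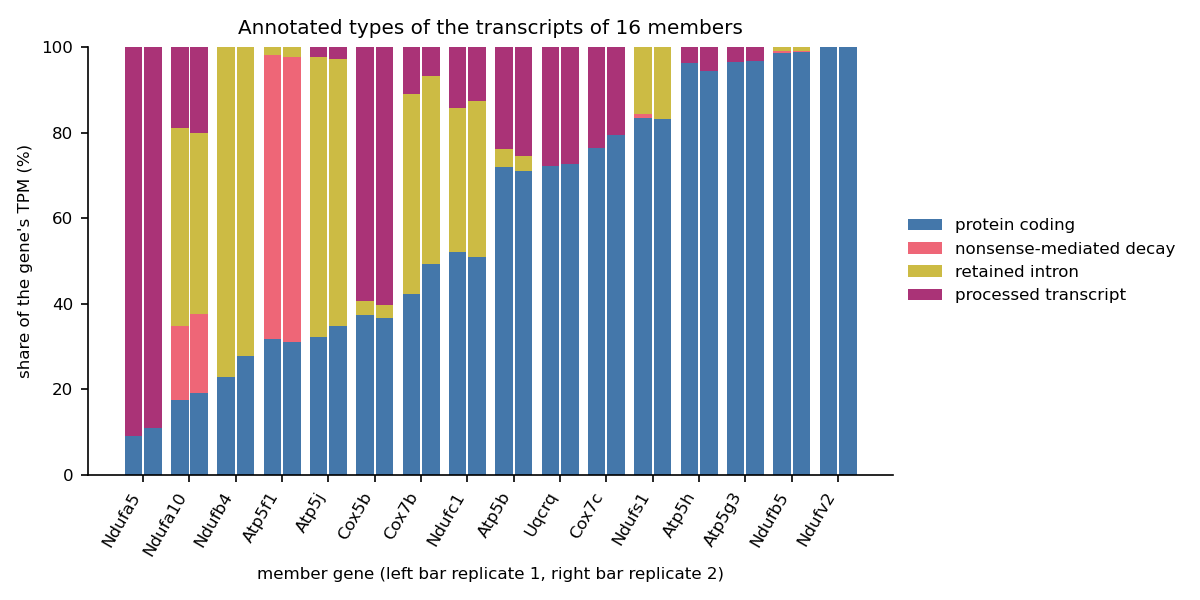
Share of each gene's TPM by annotated transcript type, in percent, for replicate 1 (left bar) and replicate 2 (right bar), for members with 2 or more transcripts of at least 20% or with a coding share under 50%. The coding share runs from 10.1% in Ndufa5 to 100% in Ndufv2, and left and right bars differ little.

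The 2 libraries gave close values for the members. Counts were compared by a two-sided exact binomial test, given the libraries' effective sizes, with Benjamini-Hochberg adjustment over 19687 genes; it compares these libraries and measures counting error only. The test took genes with 10 or more counts summed over the libraries, which left out Cox7b2, Cox8b and Cox8c. Of 81 members tested, 12 were higher in replicate 2, where 6.85% of all tested genes were higher, and 1 was lower, where 5.29% were lower; in all, 12.1% of the tested genes were called. Of 2592 genes with counts at or above the members' lower quartile of 6522, 13.9% were higher and 11% lower, 24.9% in all. Of the members tested, 16% were called, but this covers all 81, those below that quartile included. The share called among members at or above the quartile was not computed. The 12 higher members were Ndufa7, Ndufa12, Ndufa13, Ndufc1, Ndufc2, Cox4i1, Cox6a1, Cox6c, Cox7c, Cox8a, Atp5a1 and Atp5g3. Sdha alone was lower, with 9166 and 10251 counts (log2 ratio -0.06, adjusted p = 0.043), and lost its call when genes with fewer counts entered the adjustment.

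The differences were small throughout. Over the 75 members with 1000 or more counts in the pair, the log2 ratio of replicate 2 over replicate 1 ran from -0.06 to 0.19. Cox6a1 had the lowest adjusted p, 6.5e-05 by the exact binomial test, on 8201 and 10246 counts, a log2 ratio of 0.10. Atp5a1 was called on 31918 and 38212 counts (log2 ratio 0.04, adjusted p = 0.0043), yet its TPM was no higher in replicate 2. Among members with a mean of 5 TPM or more, the 5 furthest from 0 were Cox7a1 (0.76), Cox6b2 (0.35), Ndufa4l2 (0.25), Ndufb4 (0.19) and Atp5l (0.13), and none of these passed the test. By the deposited TPM intervals, 8 members lay wholly higher in replicate 2 and 1, Ndufv1, wholly lower, against 3.86% and 4.21% of all tested genes, 8.07% in all.

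Direction between the libraries depended on the scaling. With the ERCC spike-ins as the scale, no member was higher in replicate 2 (2.66% of all genes were), and 59 were lower, against 37% of all genes. That scale shifts every gene by -0.14 on the log2 scale, and the spike-ins made up 2.31% and 2.54% of the counts. Such a shift is called more readily at high counts, and only 2592 of the 19687 tested genes reached the members' lower quartile. The share called among those genes under this scaling was not computed. Tissue markers also differed: all 5 choroid plexus markers were higher in replicate 2, with sums of 616 and 1158 TPM, and Ttr, which marks that tissue, had 533 and 1022 TPM. Of 5 red blood cell markers 4 were higher and 1 lower, with sums of 10239 and 10958 TPM. The part of these tissues in the members' differences was not tested.

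**Figure D5:**
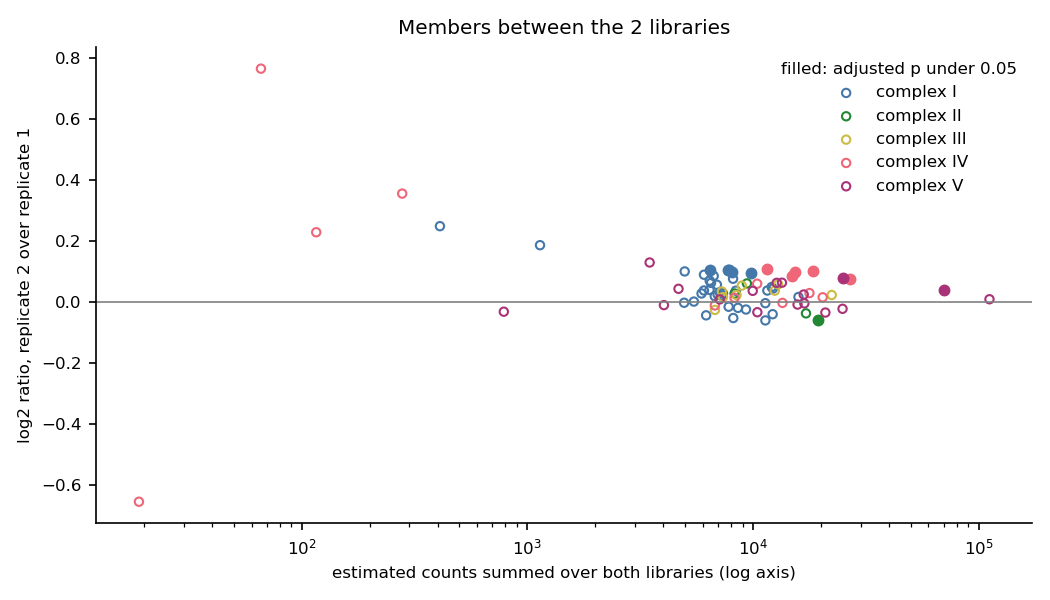
Log2 ratio of replicate 2 over replicate 1 against the summed estimated counts (log axis) for the 81 tested members, coloured by complex; filled points passed the exact binomial test at an adjusted p of 0.05. Members with over 1000 counts lie between -0.06 and 0.19, and the points far from 0 have few counts.

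Other parts of the machinery were measured from lists. Subunits and carriers that the symbols miss were also abundant: the 6 measured had a median of 421 ± 2.05 TPM, led by Usmg5, an ATP synthase subunit (1397 ± 50.1), Atpif1, the ATP synthase inhibitor (1164 ± 5.57), and Ndufab1, the acyl carrier protein of complex I (517 ± 6.94). Somatic cytochrome c, Cycs, had 61.5 ± 1.80 TPM and the testis form Cyct had 2 and 1 counts. The 13 subunits encoded in mitochondrial DNA had a median of 1311 ± 209 TPM and held 2.92% and 2.89% of the TPM, close to the share of all 84 nuclear members. mt-Atp6 was highest (7415 ± 404), then mt-Atp8 (6527 ± 82.2) and mt-Cytb (3355 and 3228 in replicates 1 and 2), and mt-Nd4l was lowest (63.7 ± 6.36). Between the libraries, 3 of these 13 were called higher and 5 lower, beside 6.85% and 5.29% of all tested genes. With counts this high, small ratios were called, such as a log2 ratio of -0.04 in mt-Cytb. The largest move was in mt-Co3, from 14513 to 25809 counts, a log2 ratio of 0.61 after scaling. mt-Atp6 and mt-Atp8 overlap in the genome, and nuclear copies of mitochondrial DNA were not examined.

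Assembly factors, which help to build the complexes and are not part of them, lay well below the subunits. Their medians were 37.6 ± 1.00 TPM for the 14 of complex I, 21.3 ± 0.735 for the 4 of complex II, 39.1 ± 0.0247 for the 6 of complex III, 35.3 ± 0.562 for the 20 of complex IV and 35.2 ± 3.66 for the 3 of complex V. All were detected. Uqcc2 of complex III was an exception with 278 ± 8.67 TPM, and Coa3 (180 ± 5.07) and Cox14 (136 ± 8.03), early factors of complex IV, were next; Pet117 was lowest (1.95 ± 1.12). Between the libraries Ndufaf2, Cox14 and Pet117 were called higher and Atpaf2 lower, beside 12.1% of all tested genes called in either direction. Of 12 regulators of respiratory genes all were detected, with a median of 16.8 ± 1.01 TPM; Hif1a (67.0 ± 2.11) was highest and the coactivator Ppargc1b lowest (1.59 ± 0.120).

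The promoters of the members were searched for motifs of 3 factors known for respiratory genes, NRF1, YY1 and the ETS factor GABP, whose genes Nrf1, Yy1 and Gabpa had 34.3 ± 1.41, 15.4 ± 0.318 and 17.0 ± 0.212 TPM. RefSeq windows (GRCm38.p6) of 250 bases before to 50 after a start site matched 68 of the 84 members, with 73 windows; 16 members had no window. Both strands were searched. The NRF1 motif GCATGCGC lay in 13.7% of the members' windows and 2.71% of all 32851 windows. The YY1 motif AAGATGGC lay in 13.7% and 2.75%, and the ETS motif CCGGAAGT in 6.85% and 3.89%. The NRF1 motif can overlap its own reverse complement. Counted by gene and beside detected protein-coding genes, the shares were 14.7% and 5.93% for NRF1, 14.7% and 5.03% for YY1, and 7.35% and 8.70% for ETS. The letters TATAAA, as in a TATA box, were found for 10.3% of the members and 8.84% of the detected genes. Median GC content was 57.3% in the members' windows, 52.7% in all and 60.7% in those of detected genes.

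The NRF1 motif was found for 10 members in all 5 complexes, and the YY1 motif for 10 members, 7 of them in complex I. For 44 members none of the 3 was found. Cox6a1, whose muscle paralog was under detection, is shown as an example of the NRF1 motif: the 250 bases before its start site (chr5:115348959-115349208, minus strand), with the motif, which matches on both strands, in capitals.
Cox6a1 upstream: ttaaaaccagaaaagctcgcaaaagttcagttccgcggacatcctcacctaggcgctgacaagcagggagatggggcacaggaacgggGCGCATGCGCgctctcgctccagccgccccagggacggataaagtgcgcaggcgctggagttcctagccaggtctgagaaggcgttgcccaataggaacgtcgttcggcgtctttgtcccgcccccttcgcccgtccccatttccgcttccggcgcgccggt
The matches began 162 and 160 bases before the start site. A match describes these letters only, and binding was not measured.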

How the data were processed

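Total RNA sequencing of 2 libraries was deposited as gene and transcript tables. Notes deposited beside the tables name mm10 and GENCODE M4. No aligner, counting program or strand setting is given in the sources used here. The authors deposited estimated counts, TPM, FPKM, a posterior mean TPM with interval bounds of unstated level (a TPM can lie outside its interval), and the percent of a gene carried by each transcript. Effective lengths in the deposited tables equal length minus 99, a fragment of 100 bases.

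Symbols, types, positions and transcript sequences came, by identifier and for the same build, from GENCODE M21 (GRCm38); 42462 of 43346 Ensembl genes matched. Of 324 member transcripts 323 had a sequence, 288 at the deposited length. Complexes, parts and paralog sets were assigned by hand. The members and lists were chosen with earlier results of these data known. Named are all paralogs, undetected members, complex II, core and catalytic subunits, the 3 highest and 3 lowest detected of each complex, members with disjoint intervals, the 5 greatest library ratios at a mean of 5 TPM or more, and members with 2 or more transcripts of at least 20%; 1 member that this rule names and 1 marker are not reported here.

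Detection was 1 TPM or more in each library, and levels were log2(TPM + 1). Rounded counts, with at least 10 in the pair, entered a two-sided exact binomial test (SciPy 1.17.1) on TMM sizes (edgeR 4.0.16; DESeq2 1.42.0 size factors as alternative) with Benjamini-Hochberg adjustment at 0.05; ratios carried 0.5 added counts. The test was checked on simulated data that held counting error only, so the check does not cover further variation between libraries. No quasi-likelihood test is possible with 1 group. The common biological coefficient of variation over 19687 genes was 6.30%. Pseudogene copies are those sharing an exact run of 100 bases with a member. Intervals and limits cover counting error only; without molecular identifiers, reads are not independent molecules.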

Additional observations from a re-analysis of the deposited data

How the results depend on the processing

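Medians of complexes relative to complex I, on the log2(TPM + 1) scale, kept their direction under FPKM, the posterior mean TPM, a pseudocount of 0.1, and in each library alone, which gave -0.51 to -0.48 for complex II, 0.53 to 0.58 for III, 0.40 to 0.53 for IV and 0.89 to 0.99 for V. Counts divided by annotated length gave -0.41 for II and 0.48 for III. Means over members gave -0.092 for II, 0.60 for III, 0.82 for V and, reversed, -1.66 for IV; the cause was not tested. Detected members alone gave 1.10 for IV, above the 0.94 for V. Chosen after seeing the data, the addition of pseudogene TPM at the copies' lengths gave -0.57 for II, 0.48 for III and 1.07 for V. Also chosen then, Ndufa4 alone counted with complex IV gave -0.465 for II and 0.80 for IV. Ndufa4 and Ndufa4l2 both counted there gave -0.49 for II and 0.47 for IV, the values without the move. Protein-coding transcripts alone, also chosen then, gave -0.44 for II, 0.51 for III, 0.76 for V and -0.59 for IV. The cause of this reversal was not tested. On coding transcripts Cox5b had 190 TPM and Cox7b 137, against 514 and 300 over all their transcripts. Members detected ranged from 78 to 81. Members called between the libraries were 9 to 13, except 59 with spike-in scaling. Ratios between paralogs reversed in 0 recomputed values. Of these values, 60 stayed within the spread between libraries and 17 moved further. For shares of transcripts, 29 values stayed within that spread and 13 moved further. These counts include values of each library alone, which always lie within the spread by arithmetic and so test nothing. They also include ratios with pseudogenes added for paralogs without a copy, which cannot change. Of the shares taken by counts, only that of Atp5g3 stayed within the spread. Depth limits Cox6a2, Cox7a1, Cox7b2, Cox8b and Cox8c, with 0 to 44 counts in a library. No paired analysis was possible because the libraries form 1 group.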
